A study of Mus musculus with 6 samples.

Results

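The Fos and Jun family of AP-1 transcription factors was followed in splenic CD4 T cells of mice with and without H2-O, an MHC class II chaperone that limits which peptides are loaded for presentation. The family was taken as the 8 genes Fos, Fosb, Fosl2, Jun, Junb, Jund, Atf3 and Batf, matched by exact symbol among the 32285 genes of the count tables, and all 8 were found. Droplet libraries (10x Genomics 5' scRNA-seq) had been prepared from 3 mice of each genotype, 1 library per mouse, named here KO1 to KO3 for the H2-O KO and WT1 to WT3 for the H2-O WT animals. All were C57BL6/J mice given as 8 weeks old in the sample labels, untreated and unimmunized, while the study's methods state another age. The H2-O KO animals lack H2-O in the whole body and were bred in house. The cells were spleen cells sorted as CD3+ CD4+ B220- NK1.1- by the labels.

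AP-1 is a dimer of basic leucine zipper (bZIP) proteins. Fos proteins bind DNA only with a partner, most often a Jun protein, whereas Jun proteins can also pair with each other, and the dimers recognise a short palindromic site in promoters and enhancers. In T cells the T cell receptor and its MAP kinase cascades switch on Fos, Fosb, Jun and Junb within minutes as immediate-early genes, and AP-1 then acts with NFAT on cytokine genes. Batf pairs with Jun proteins and IRF4 in effector and regulatory T cells, Atf3 is a bZIP gene induced by many stresses, and Jund is the Jun protein with the steadiest expression in resting cells.

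By the RefSeq start sites of GRCm38.p6, the 250 bases before the transcription start were read for all 8 genes, and those of Fos, Fosb and Jun are shown because these 3 immediate-early genes differed between the T cell gates described further on, Fos and Fosb in one direction and Jun in the other. In Fos and Fosb the capitals mark the 5-base core TGACG of a cyclic AMP response element. In Jun they mark TGACATCA, the AP-1-like site of the Jun promoter. Fos lies on the plus strand at chr12:85473640-85473889 (build GRCm38.p6), Fosb on the minus strand at chr7:19310046-19310295 and Jun on the minus strand at chr4:95052223-95052472, each written 5′ to 3′.
Fos: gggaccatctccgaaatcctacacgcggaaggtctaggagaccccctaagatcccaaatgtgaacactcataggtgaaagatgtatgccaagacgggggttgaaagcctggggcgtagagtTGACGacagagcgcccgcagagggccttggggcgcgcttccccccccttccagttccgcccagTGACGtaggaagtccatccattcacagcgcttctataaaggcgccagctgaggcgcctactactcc
Fosb: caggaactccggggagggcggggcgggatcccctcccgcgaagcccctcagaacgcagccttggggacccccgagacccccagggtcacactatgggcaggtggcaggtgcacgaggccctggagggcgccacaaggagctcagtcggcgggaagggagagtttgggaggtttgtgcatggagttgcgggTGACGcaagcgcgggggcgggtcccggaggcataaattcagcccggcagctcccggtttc
Jun: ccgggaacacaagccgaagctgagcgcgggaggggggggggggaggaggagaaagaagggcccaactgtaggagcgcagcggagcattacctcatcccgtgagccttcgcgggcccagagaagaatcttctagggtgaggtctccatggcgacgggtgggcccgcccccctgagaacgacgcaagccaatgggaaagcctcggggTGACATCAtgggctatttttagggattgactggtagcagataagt
Both strands were searched. TGACG stood at -129 to -125 and -66 to -62 from the start of Fos and at -60 to -56 from that of Fosb, and also in the windows of Junb, Batf and, on the reverse strand, Atf3. It was looked for after these sequences had been seen, and 17.8% of all 32851 promoter windows of the same length held it. TGACATCA stood at -45 to -38 in Jun and in 2.93% of all windows. The consensus AP-1 site TGACTCA (4.46% of all windows), the full cyclic AMP response element TGACGTCA (1.55%) and the CArG box of serum response factor (1.47%) were in no member's window. Each TGACGTCA also counts as a TGACG. The windows of Fosl2 (32136222 to 32136471) and Atf3 (191183334 to 191183583) lie inside the GENCODE genes given below. That of Jund (70697489 to 70697738) ends well before the GENCODE start at 70698949. Sites outside the windows were not searched.

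In the GENCODE annotation of GRCm38 the Fos-type genes were Fos (ENSMUSG00000021250) on chromosome 12 from 85473890 to 85477273, plus strand, Fosb (ENSMUSG00000003545) on chromosome 7 from 19302696 to 19310051, minus strand, and Fosl2 (ENSMUSG00000029135) on chromosome 5 from 32135801 to 32157842, plus strand. The Jun-type genes were Jun (ENSMUSG00000052684) on chromosome 4 from 95049034 to 95052222, minus strand, Junb (ENSMUSG00000052837) on chromosome 8 from 84974484 to 84978718, minus strand, and Jund (ENSMUSG00000071076) on chromosome 8 from 70698949 to 70700616, plus strand. The remaining pair was Atf3 (ENSMUSG00000026628) on chromosome 1 from 191170296 to 191218039, minus strand, and Batf (ENSMUSG00000034266) on chromosome 12 from 85686669 to 85709087, plus strand. Jun overlaps Junos, Junb overlaps Prdx2, Jund overlaps Gm11175 and Atf3 overlaps Gm24748, all on the opposite strand. How the counting used strand is not given in the sources used here, so the values of these 4 genes may hold reads of the overlapping gene.

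The deposited values are counts of UMIs, tags that each mark 1 captured RNA molecule, and levels are given as UMIs of the gene per 1000000 UMIs of the summed cells (CPM). Libraries held 9973193 to 40237962 UMIs in their called cells. After the filters a cell was taken as a T cell when it had a T cell receptor or CD3 UMI and under 2 UMIs of B cell and macrophage markers, which left 2125 to 7652 T cells a library. The sums over T cells held 38124 UMIs of Fos, 6272 of Fosb, 3322 of Fosl2, 57836 of Jun, 329730 of Junb, 131173 of Jund, 859 of Atf3 and 7816 of Batf. H2-Oa, which encodes a chain of H2-O and is mainly a B cell gene, stood at 13.5 to 46.9 CPM in the few B cell-marker cells of H2-O KO and at 97.6 to 249.6 CPM in those of H2-O WT, and at 3.06 to 4.47 against 4.97 to 7.12 CPM in T cells. In the T cell sums, 4 B cell genes together stood at 3.39 to 4.42 CPM in H2-O KO and 3.09 to 4.77 in H2-O WT. The 5 macrophage genes stood at 1.41 to 2.84 and 1.21 to 2.15 CPM. The T cell rule admits only cells with under 2 UMIs of these genes, so low sums follow from it. The 3 NK and NKT cell genes (Zbtb16, Klrb1c and Ncr1) moved with the genotype, at 4.85 to 6.50 CPM in H2-O KO and 8.20 to 10.3 CPM in H2-O WT over all T cells, and at 4.55 to 6.43 and 7.54 to 8.41 CPM in T cells with at least 10% ribosomal UMIs. The 2 erythroid genes stood at 41.6 CPM in KO3 and at 0.0672 to 1.42 CPM in the other 5 libraries. The part of either list in the differences between genotypes was not tested. Pairs of libraries shared 21 to 99 cell barcodes.

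The libraries differed in the share of T cells with few UMIs of ribosomal protein genes. T cells with under 10% of their UMIs from ribosomal protein genes (ribosomal UMIs) made up 3.07, 7.53 and 15.7% of T cells in KO1 to KO3 and 41.6, 18.5 and 43.6% in WT1 to WT3. KO3 and WT2 lay next to each other, and WT1 and WT3 stood apart from the other 4. These cells held a median of 1446 to 1809.5 UMIs against 4172 to 5654 in the T cells with at least 10%, and their mitochondrial genes summed to 29189 to 36548 CPM against 18786 to 21518 CPM. All comparisons of genotype were therefore also made within each of these classes of cells.

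Over all T cells, the KO libraries had less Fosb and Fosl2 and more Junb than the WT libraries. These 3 of the 8 members passed the test (edgeR quasi-likelihood, Benjamini-Hochberg adjusted p under 0.05 over all genes), as did 32.3% of the 12279 genes tested. Fosb, an immediate-early Fos gene, stood at 47.9, 46.0 and 41.2 CPM in KO1 to KO3 and at 75.5, 45.7 and 78.4 CPM in WT1 to WT3. The groups overlapped, because WT2 lay with the KO libraries. The log2 fold difference was -0.48 ± 0.16 (SE, n = 3 against 3, adjusted p = 0.0465).

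Fosl2, the Fos-type gene also called Fra-2, stood at 21.2, 21.9 and 27.8 CPM in KO libraries and at 35.5, 26.5 and 44.9 CPM in WT libraries. Here too KO3 and WT2 met, and the fitted difference was -0.52 ± 0.17 (adjusted p = 0.0363). Junb, a Jun protein of activated T cells and of Th17 and regulatory T cell programmes, stood at 3043, 2709.8 and 2709 CPM in KO libraries and at 2320.4, 2389 and 2473 CPM in WT libraries. No WT library reached the lowest KO library, at a log2 difference of 0.30 ± 0.09 (adjusted p = 0.0349). The other 5 members were not called. Fos stood between 304 and 356 CPM in KO libraries and between 231 and 332 CPM in WT libraries (0.23 ± 0.12), Jun differed by -0.17 ± 0.10, Jund by 0.22 ± 0.10, Batf by 0.17 ± 0.15 and Atf3 by -0.12 ± 0.28. In sums over cells, fewer cells of a type and less RNA per cell cannot be told apart.

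With 1 library left out, the differences ran from -0.66 to -0.31 for Fosb, from -0.68 to -0.30 for Fosl2 and from 0.24 to 0.35 for Junb, in fits with fewer libraries. None of the 8 members was called without KO1, without KO2 or without WT1, only Fosl2 was called without KO3, only Batf without WT3, and 4 members (Fosb, Fosl2, Junb and Jund) without WT2. No member was called among cells of at least 2000 UMIs. The share of cells under 10% ribosomal UMIs, given above, moved with the genotype, and Fosb and Fosl2 had a higher CPM in those cells in every library. Its part in the difference over all T cells was not tested, while the values within each class follow.

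Within T cells of at least 10% ribosomal UMIs, none of the 8 members was called by edgeR, against 8.25% of the 12046 genes tested. Jun and Junb, 2 of the 8, had an unadjusted p under 0.05, and DESeq2 called 1, Jun. Fosl2 there stood at 20.1, 18.8 and 24.0 CPM in KO libraries and 23.9, 21.1 and 27.0 CPM in WT libraries, with overlapping groups and a difference of -0.20 ± 0.12 in place of -0.52 ± 0.17. Fosb differed by -0.29 ± 0.17 (adjusted p = 0.322). Jun stood at 453, 459 and 394 CPM in KO libraries and at 473, 566 and 492 CPM in WT libraries. All KO libraries were the lower ones, yet the difference of -0.24 ± 0.09 did not pass (adjusted p = 0.112). Junb differed by 0.14 ± 0.06 (adjusted p = 0.169), Fos by 0.11 ± 0.13, Jund by 0.05 ± 0.05, Batf by 0.05 ± 0.19 and Atf3 by -0.26 ± 0.32.

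Of the lists of genes around AP-1, those of heat shock genes and partners had the largest shares called in these cells, 58.3 and 44.4% against 8.25% of all genes. Of 12 heat shock genes tested, 7 fell and 0 rose, with a median of -0.28 against 0.00 over all genes tested, led by Hspa1a at -5.21 ± 0.69, Hspa1b at -4.78 ± 0.62 and Hsph1 at -1.09 ± 0.09 (adjusted p = 0.0064, 0.00611 and 0.001). Hspa1a, an inducible HSP70 gene, stood at 0.736 to 1.58 CPM in KO libraries and at 10.3 to 70.9 CPM in WT libraries. The positions of the heat shock genes relative to the H2-O genes were not looked at. The cause of their differences, here and in the sets of cells below, was not tested. Of 9 partners of AP-1, 4 fell, among them Nfatc2 (-0.40 ± 0.10) and Nfatc3 (-0.32 ± 0.07), which encode NFAT proteins. The 30 further immediate-early genes were listed as genes of the response to tissue dissociation, whose part in any level here was not tested. Of these 30, 1 rose, the T cell receptor-induced nuclear receptor Nr4a1 (0.42 ± 0.11, adjusted p = 0.049997), and 2 fell, Rhob (-0.64 ± 0.10) and Klf6 (-0.42 ± 0.07). Among 27 upstream kinases and factors 1 rose and 1 fell, and among 30 other bZIP genes 0 rose and 2 fell. The shares called of these last 3 lists, 10.0, 7.41 and 6.67%, were near that of all genes, and 0 of the 13 AP-1 targets other than Cd44 were called.

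Within T cells under 10% ribosomal UMIs, Fos, Junb and Jund rose in KO libraries, which is 3 of the 7 members tested, against 14.9% of 9141 genes. Atf3, with 2, 12, 10, 7, 9 and 30 UMIs in KO1 to KO3 and WT1 to WT3, did not pass the filter on low counts. Fos, the defining immediate-early gene of the family, stood at 564, 415 and 388 CPM in KO libraries and at 271, 260.2 and 304 CPM in WT libraries. KO1 was the highest and no WT library reached the lowest KO value. The log2 difference was 0.54 ± 0.14 (adjusted p = 0.0158). In cells of 5-10% ribosomal UMIs alone, however, WT2 stood at 519 CPM, above KO2 at 375 and KO3 at 387 CPM. The libraries also differed in mix, with 653 of 802 of these cells at 0-5% in WT2 and 171 of 1882 in WT3.

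Junb stood at 2605, 2389.5 and 2113 CPM in KO libraries and at 1501, 1619.5 and 1625 CPM in WT libraries (0.44 ± 0.14, adjusted p = 0.0378). Jund stood at 839, 681 and 807 CPM in KO libraries and at 522, 519 and 538 CPM in WT libraries (0.42 ± 0.13, adjusted p = 0.0411). For both Jun genes the genotypes were fully separated over this class, with the WT libraries close to each other. The share of all genes separated in this way is not given for this or any other set of cells. Separation alone is therefore no result about these members. In cells of 5-10% alone Junb overlapped, at 2143 CPM in WT2 and 2098 CPM in KO3. Jund did not overlap at 0-5% or at 5-10%. The members that were lower over all T cells were not separated here: Fosb stood between 128 and 178 CPM in KO libraries and between 143 and 164 CPM in WT libraries (-0.22 ± 0.12), and Fosl2 between 76.6 and 119 and between 88.2 and 106 CPM (-0.16 ± 0.15). Jun differed by -0.10 ± 0.12 and Batf by -0.22 ± 0.19. The 3 members called became 0 without KO1, without WT1 or without WT2, 2 without KO2 (Fos and Jund) or without KO3 (Fos and Junb), and remained 3 in number without WT3. With cells of up to 10% mitochondrial UMIs kept, only Fos was called, with Junb at 0.44 and Jund at 0.39 (adjusted p = 0.0504 and 0.0642). The Fos difference ranged from 0.41 to 0.65 over these 6 fits. With libraries scaled by total UMIs, the median over all genes moved from 0.02 to 0.14 and the differences of Fos, Junb and Jund were 0.69, 0.58 and 0.56, all 3 still called, while Jun turned from -0.10 to 0.03, not called.

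**Figure D1:**
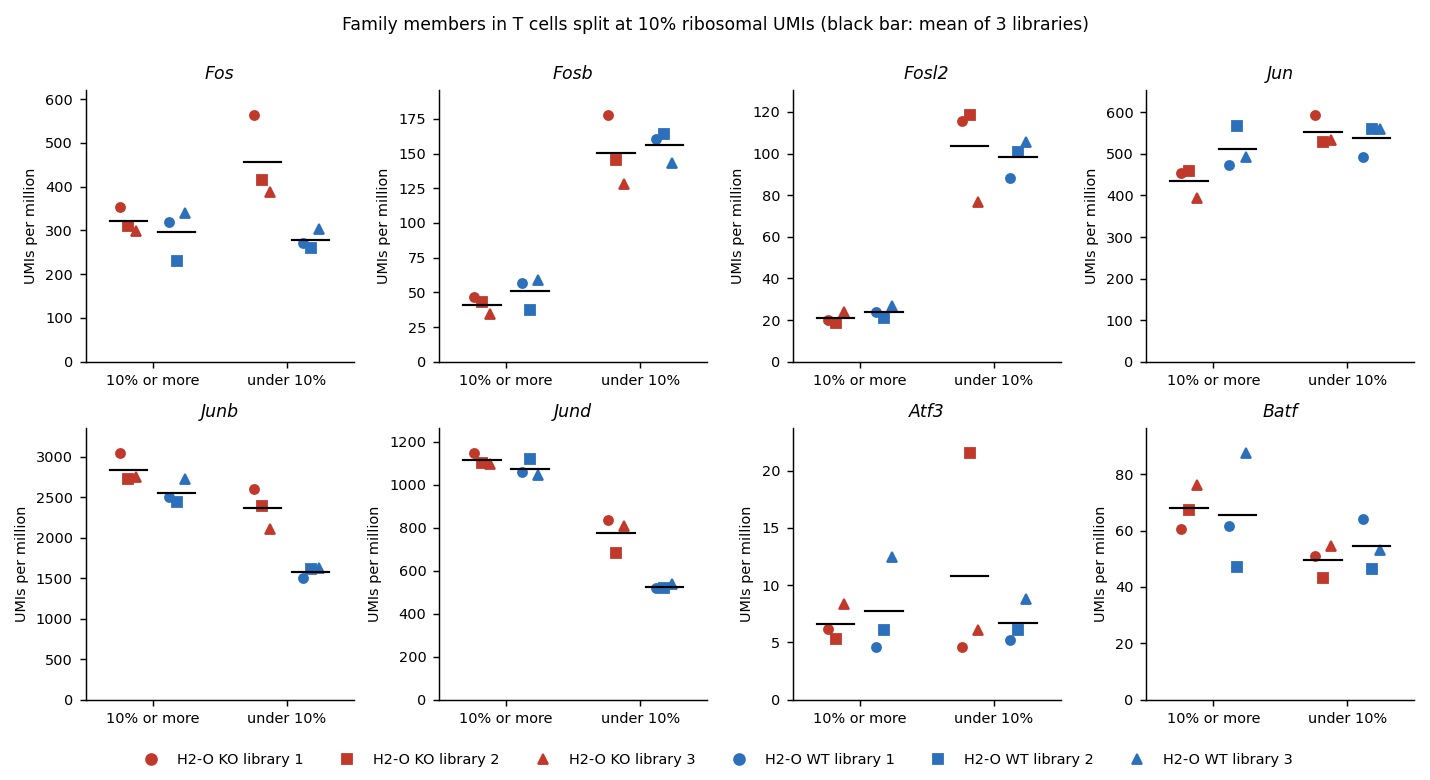
Each panel gives 1 family member, with the level in CPM on the vertical axis from 0 and the 2 classes of T cells, at least 10% and under 10% ribosomal UMIs, on the horizontal axis; each point is 1 library (red KO libraries, blue WT libraries) and each black bar the mean of 3 libraries. Among cells under 10%, the red points of Fos, Junb and Jund all lie above the blue ones (Fos from 388 to 564 against 260.2 to 304 CPM), and Fosl2 rises in all 6 libraries from 18.8 to 27.0 CPM to 76.6 to 119 CPM.

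The cells under 10% also differed in their makeup. Cells with at least 2 UMIs of the 7 effector markers and no Foxp3 UMI made up 16.6 to 22.1% of them in KO libraries and 8.36 to 11.5% in WT libraries, and cells with a Foxp3 UMI 8.09 to 8.21% and 4.30 to 6.61%. The genotypes were apart in both shares. Among cells of at least 10% the effector-marker share overlapped, at 23.6 to 27.3% and 23.1 to 30.0%. The share with a Foxp3 UMI was apart there too, at 9.26 to 11.4% in KO libraries and 8.40 to 9.07% in WT libraries. The test was therefore repeated in subsets of the cells under 10%, a choice made after these values had been seen. In those with UMIs of naive T cell markers such as Ccr7 and no effector marker (naive-marker cells, 115 to 748 a library), 4.43% of 7239 genes were called, and Fos and Junb among the members.

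Fos in the naive-marker cells under 10% stood at 452, 309.7 and 293 CPM in KO libraries and at 208, 154 and 201 CPM in WT libraries, a difference of 0.75 ± 0.17 (adjusted p = 0.0161). Junb there differed by 0.54 ± 0.16 (adjusted p = 0.0465) and Jund by 0.42 ± 0.16 (adjusted p = 0.126). In the effector-marker cells under 10% (52 to 216 a library) 2.61% of 3758 genes were called, and the members called were others. Fosb fell in KO libraries by 0.80 ± 0.19 on the log2 scale, from 428, 548 and 367 CPM in WT1 to WT3 to 236, 334 and 233 CPM in KO1 to KO3 (adjusted p = 0.0392). Jun fell by 0.67 ± 0.17, from 574, 734 and 622 CPM to 391, 523 and 379.8 CPM (adjusted p = 0.048). Fos differed by -0.01 ± 0.18 and Junb by 0.21 ± 0.16, neither called, from 79 to 231 Fos UMIs a library. Whether the difference between genotypes itself differed between these subsets was not tested.

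Of 29 further immediate-early genes tested in the cells under 10%, 8 (27.6%, against 14.9% of all genes) rose and 0 fell in KO libraries, with a median of 0.30 against 0.02 over all genes. Socs3, a feedback inhibitor of cytokine signalling, differed by 0.80 ± 0.23, the MAP kinase phosphatase Dusp1 by 0.69 ± 0.12 and Gadd45b by 0.68 ± 0.22 (adjusted p = 0.0269, 0.00166 and 0.0461). Of 8 known AP-1 target genes tested, Cd44 left out, 5 rose and 0 fell, among them the intermediate filament gene Vim (1.53 ± 0.12), Ifng (1.13 ± 0.35) and the costimulatory receptor Icos (0.69 ± 0.14). Several of these genes are also higher in effector cells, whose share differed as given above. Of 27 upstream genes 1 rose, Map2k3 (1.04 ± 0.20), a kinase of the p38 pathway, and 3 fell, and of 8 partners Irf4 (0.85 ± 0.22) rose while Satb1 (-0.64 ± 0.13) and Runx1 (-0.39 ± 0.13) fell. The 26 other bZIP genes split into 2 higher, Cebpa and Maf (0.60 ± 0.17), and 2 lower, Bach2 (-0.45 ± 0.14) and Atf7 (-0.39 ± 0.13). The shares called of the upstream and other bZIP genes, 14.8 and 15.4%, were near that of all genes. Among 11 heat shock genes 3 rose, among them the mitochondrial chaperone Hspd1 (0.95 ± 0.19), and 2 fell, Hspa1b (-3.82 ± 0.74) and Hsph1 (-1.05 ± 0.20). Transcripts retained in the nucleus, such as Malat1, summed to 42248 to 112613 CPM in KO libraries and 76219.9 to 146580.0 CPM in WT libraries in these cells. Mitochondrial genes summed to 29189 to 33341 and 35265 to 36548 CPM, and the part of either in the differences was not tested.

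Between the 2 classes of cells within a library the family split by member. With TMM scaling, which centres the differences of all genes near 0, Fosl2 and Fosb were higher in cells under 10% than in cells of at least 10% ribosomal UMIs, and Jund, Junb, Batf, Fos and Jun were lower. These are 7 of 8 members, in a comparison that called 74.6% of 10396 genes. Fosl2 rose from between 18.8 and 27.0 CPM to between 76.6 and 119 CPM, without overlap (1.47 ± 0.10, n = 6 libraries, adjusted p = 4e-10). Fosb rose from between 34.5 and 59.3 CPM to between 128 and 178 CPM (1.09 ± 0.09, adjusted p = 3.95e-09). In CPM both genes were far apart between the classes in every library. Cells under 10% held fewer UMIs, as given above, so a higher CPM need not mean more molecules per cell. Fosb in WT1 stood at 0.274 and 0.189 UMIs per cell at 0-5% and 5-10%, against 0.280 at 10% and over. In KO1 these values were 0.340 and 0.303 against 0.229.

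Jund fell from between 1044 and 1149 CPM to between 519 and 839 CPM (-1.44 ± 0.11, adjusted p = 2.07e-09) and Junb from between 2445 and 3048 CPM to between 1501 and 2605 CPM (-1.14 ± 0.12, adjusted p = 1.95e-07). Batf differed by -0.99 ± 0.11 (adjusted p = 1.7e-07). Fos and Jun had the smallest called differences among the members, -0.45 ± 0.09 and -0.45 ± 0.09, and their direction depended on the scaling. Cells under 10% hold a smaller share of ribosomal UMIs by definition, so other UMIs make up a larger share of their total. This need not hold for each gene. With libraries scaled by total UMIs the median over all genes was 0.67 in place of 0.04, a shift whose cause was not tested. On that scale, where 78.5% of genes were called, Jun was higher in cells under 10% (0.21 ± 0.09, adjusted p = 0.0435) and Fos was at 0.20 ± 0.11 (adjusted p = 0.109), while Fosl2 (2.12), Fosb (1.74), Junb (-0.48), Jund (-0.78) and Batf (-0.36) kept their directions and calls. Atf3 differed by -0.58 ± 0.27 and was not called (adjusted p = 0.0628). Within the 3 KO libraries alone the Fos difference was -0.33 ± 0.10 and within the WT libraries -0.67 ± 0.09, and Fosl2 was at 1.39 ± 0.15 and 1.44 ± 0.10.

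In the other lists 72.7 to 88.9% of genes were called, near or somewhat above the 74.6% of all genes, so their directions are given. Of these, 18 of 27 upstream genes were higher and 6 lower in cells under 10%, with Braf at 1.57 ± 0.09 and Map3k7 at 1.21 ± 0.07, and 7 of 9 partners were higher and 1 lower, with Satb1 at 1.07 ± 0.11. Of 29 immediate-early genes 19 were lower, led by Ier2 (-1.33 ± 0.09), and 4 higher, led by the T cell receptor-induced Nr4a3 (1.33 ± 0.08). The 27 other bZIP genes split into 11 higher, among them Bach2 (1.55 ± 0.09), a repressor at AP-1-like sites, and 9 lower, among them Cebpb (-1.34 ± 0.12). Heat shock genes were lower in 8 of 12 and higher in 1. AP-1 targets other than Cd44 were lower in 5 of 10 and higher in 3. All these directions are on the TMM scale. The lists were not counted with libraries scaled by total UMIs, where directions may differ, as those of Fos and Jun did.

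**Figure D2:**
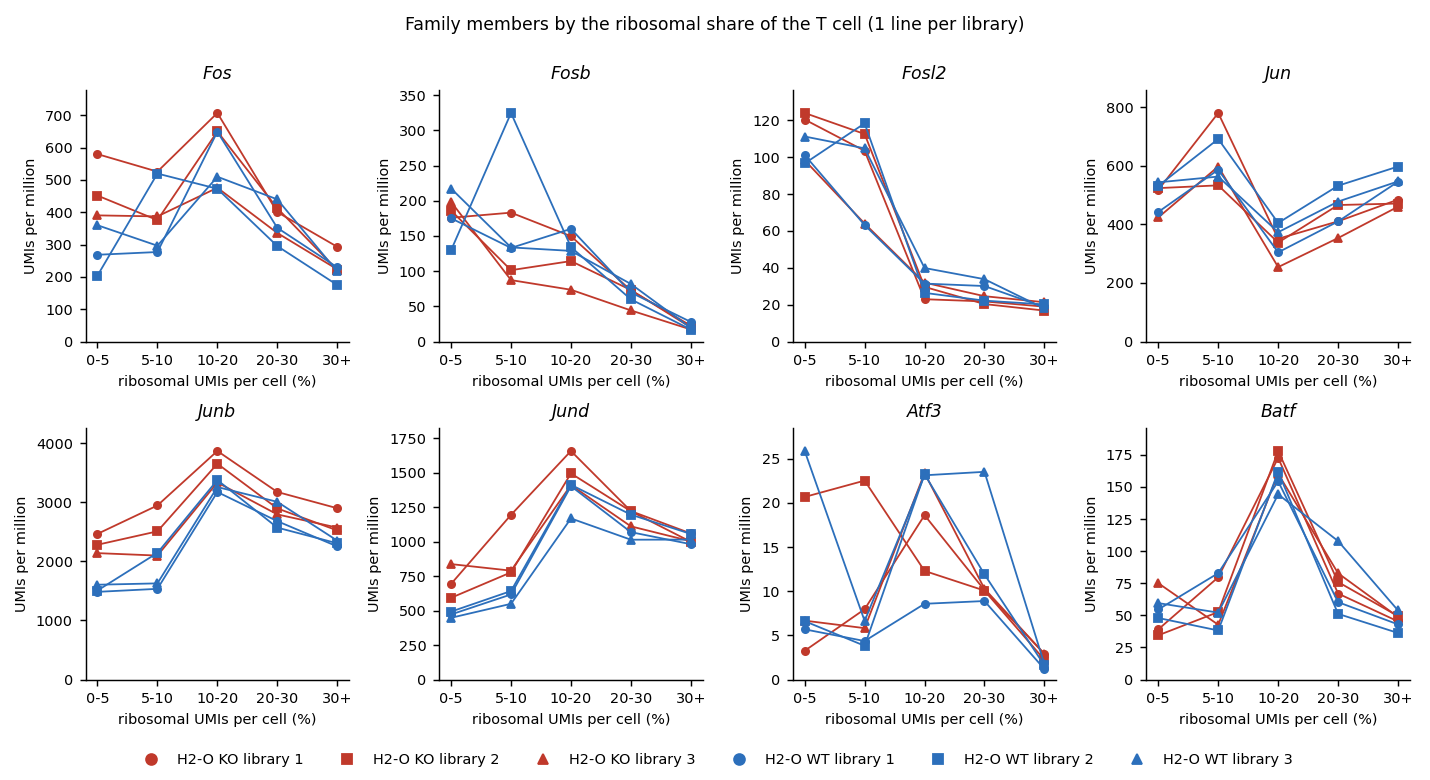
Each panel gives 1 member, with the level in CPM on the vertical axis from 0 and the cells' percentage of ribosomal UMIs in 5 bins on the horizontal axis; each line joins the values of 1 library (red KO libraries, blue WT libraries). Fosl2 and Fosb have their highest values in a bin under 10% in each library, whereas Junb, Jund and Batf are highest in the bin of 10-20%, as is Fos in all libraries but WT2, and Jun is lowest there.

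In finer bins of ribosomal share the course was not a straight one for most members. Fos stood between 204 and 579.6 CPM in T cells of 0-5%, between 472 and 707 CPM at 10-20%, between 295 and 439.7 CPM at 20-30% and between 175 and 293 CPM at 30% and over. Jun ran the other way, between 254 and 405 CPM at 10-20% and between 460.3 and 597 CPM at 30% and over. Batf was between 144 and 178 CPM at 10-20% and between 36.3 and 53.8 CPM at 30% and over, without overlap. Fosl2 stood between 96.7 and 124 CPM at 0-5%, between 63.2 and 118 CPM at 5-10% and between 23.0 and 39.9 CPM at 10-20%. The cells of each bin differ in their mix of naive, effector and regulatory cells, which is taken up with the gates.

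The difference between genotypes was not shown to differ between the 2 classes for any member. In the interaction test 0 of 8 members were called (edgeR adjusted p under 0.05, 1 at an unadjusted p under 0.05, 0 by DESeq2), against 3.51% of 11152 genes. Fos came nearest, with a difference of differences of 0.40 ± 0.13 (adjusted p = 0.0979), followed by Jund at 0.34 ± 0.18 (adjusted p = 0.337) and Junb at 0.27 ± 0.21 (adjusted p = 0.561). With libraries scaled by total UMIs Fos (0.56) and Jund (0.50) were called. In simulated data of this design 29.6% of the tested genes changed 2-fold were recovered, which limits what this test could detect.

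T cells of at least 10% ribosomal UMIs were then split into gates by their markers. The naive gate had a UMI of a naive T cell marker such as Ccr7, no Foxp3 and no effector marker UMI (518 to 3311 cells a library), the effector gate at least 2 effector marker UMIs and no Foxp3 UMI (321 to 1830 cells), and the Treg gate a UMI of Foxp3, the defining factor of regulatory T cells (106 to 687 cells). In the naive gate 1 of the 8 members was called between genotypes, against 11.6% of 10474 genes. Jun fell in KO libraries by 0.24 ± 0.06 on the log2 scale, from 515, 600.0 and 547 CPM in WT1 to WT3 to 482, 478 and 468 CPM in KO1 to KO3 (adjusted p = 0.019). The 3 KO values lay close together and below each WT value. The call was lost without KO1, KO2 or WT2, where the differences were between -0.24 and -0.19. It was also lost with UMIs outside ribosomal and mitochondrial genes as library size (-0.21, adjusted p = 0.0542), with the ribosomal split at 5% (-0.17), in cells of 20-30% (-0.25) and over cells of any ribosomal share (-0.11).

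Fos in the naive gate stood at 270.0, 207 and 212 CPM in KO libraries and at 214, 160.4 and 221 CPM in WT libraries, with overlap (0.22 ± 0.12, adjusted p = 0.238). Junb stood at 2834, 2465 and 2482 CPM and at 2229, 2303 and 2343 CPM, without overlap, and its difference of 0.16 ± 0.06 did not pass (adjusted p = 0.107). Atf3 rested on 33, 14, 23, 2, 5 and 13 UMIs in KO1 to KO3 and WT1 to WT3 (0.73 ± 0.50), and Fosb (-0.08 ± 0.18), Fosl2 (-0.08 ± 0.14), Jund (0.05 ± 0.06) and Batf (0.11 ± 0.11) were not called. Of the lists, 75.0% of heat shock genes, 44.4% of partners, 17.2% of immediate-early, 11.1% of upstream and 7.69% of other bZIP genes were called, against 11.6% of all genes. Heat shock genes fell in 9 of 12 (Hspa1b at -5.15 ± 0.43), partners in 4 of 9 (Nfatc2 at -0.39 ± 0.10, Nfatc3 at -0.36 ± 0.07), and of 29 immediate-early genes Nr4a1 (0.45 ± 0.10) and Nr4a2 (0.52 ± 0.13) rose while Rhob (-0.68 ± 0.11), Klf6 (-0.45 ± 0.07) and Tnfaip3 (-0.26 ± 0.07) fell.

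In the effector and Treg gates no member was called between genotypes, against 0.751% of 10386 and 0.239% of 9213 genes. Among effector gate cells Jun stood at 398, 388 and 311 CPM in KO libraries and 389, 445 and 443 CPM in WT libraries (-0.23 ± 0.10, adjusted p = 0.29), and Fosl2 differed by -0.31 ± 0.14 (adjusted p = 0.285). These 2 had an unadjusted p under 0.05. Fos (0.04 ± 0.12), Fosb (-0.29 ± 0.19), Junb (0.11 ± 0.08), Jund (0.06 ± 0.07), Batf (0.12 ± 0.21) and Atf3 (-0.49 ± 0.28) did not. In the Treg gate Fos stood at 508, 548 and 368 CPM in KO libraries and 474, 343 and 406 CPM in WT libraries (0.24 ± 0.14, adjusted p = 0.626), Jun differed by -0.16 ± 0.17, and no member reached an unadjusted p under 0.05. H2-Oa stood at 1.01 to 2.01 CPM in the Treg gate of KO libraries and at 14.7 to 23.8 CPM in that of WT libraries. There the 4 B cell genes summed to 10.6 to 16.5 and 9.16 to 13.2 CPM. In the effector gate H2-Oa stood at 2.91 to 5.66 CPM in KO libraries and 7.59 to 10.5 CPM in WT libraries. In the naive gate it overlapped, at 3.10 to 4.72 and 3.27 to 3.98 CPM. Whether the genotype difference of a member differed between gates was not tested.

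**Figure D3:**
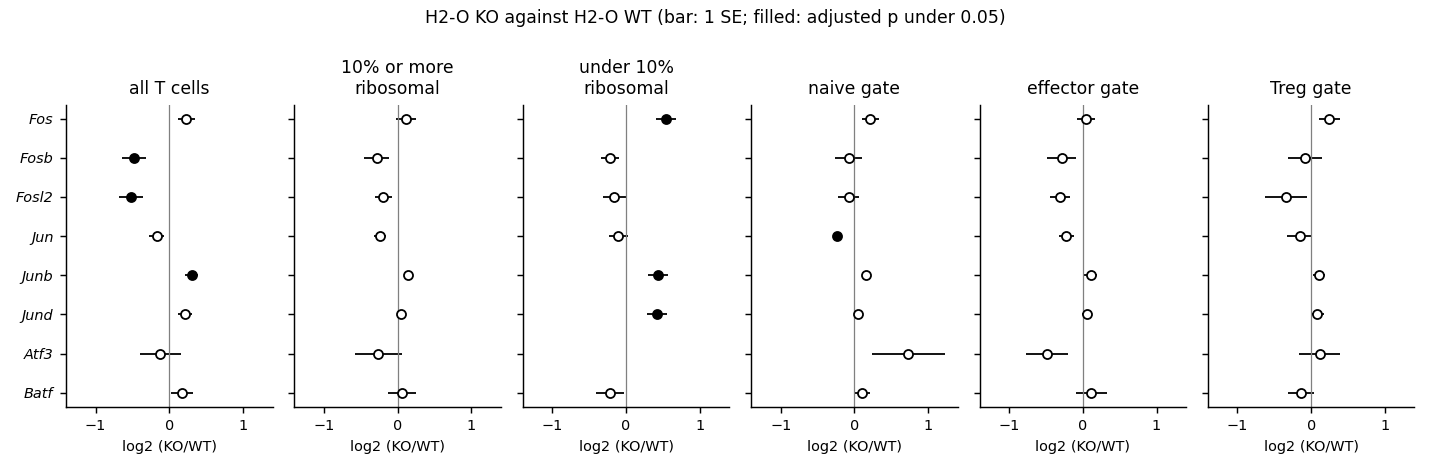
Each panel gives the log2 difference of KO libraries from WT libraries in 1 set of cells for the 8 members, with a bar of 1 SE from edgeR and a filled point where the adjusted p was under 0.05. Filled points are Fosb, Fosl2 and Junb over all T cells, Fos, Junb and Jund under 10% ribosomal UMIs and Jun in the naive gate; Atf3 has no point under 10% because it was not tested there.

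The gates were then compared with each other within libraries. In the effector gate against the naive gate of the same library, 5 of 8 members were higher and Jun was lower, in a comparison that called 41.9% of 10353 genes. Among the Fos-type genes, Fosb rose from between 13.1 and 23.2 CPM in the naive gate to between 55.5 and 107 CPM in the effector gate (2.03 ± 0.08, n = 6 libraries, adjusted p = 1.36e-15). Fos rose from between 160.4 and 270.0 CPM to between 334 and 488 CPM (0.88 ± 0.04, adjusted p = 4.5e-15). For both, each effector value exceeded all 6 naive values.

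Atf3 rose from between 0.568 and 3.04 CPM to between 9.92 and 27.9 CPM (2.85 ± 0.19, adjusted p = 7.52e-12), with only 2 to 33 UMIs a library in the naive gate. Batf rose by 0.61 ± 0.05 (adjusted p = 1.29e-09) and Junb by 0.17 ± 0.03 (adjusted p = 0.0002). Jun fell from between 468 and 600.0 CPM to between 311 and 445 CPM (-0.53 ± 0.04, adjusted p = 5.26e-11), so that Fos and Fosb on one side and Jun on the other moved in opposite directions in every library. Fosl2 (0.21 ± 0.09, adjusted p = 0.0592) and Jund (-0.04 ± 0.03) were not called.

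In the Treg gate against the naive gate 6 of 8 members were higher and Jun was lower, against 46.0% of 9643 genes called. Both gates are set against the same naive cells, and the Treg gate may hold cells with effector markers while the naive gate may not. Batf, a partner of Jun proteins that regulatory T cells of tissues depend on, stood between 37.8 and 52.3 CPM in the naive, between 52.8 and 109 CPM in the effector and between 117 and 183 CPM in the Treg gate. The lowest Treg value lay above all effector values, and the difference from the naive gate was 1.46 ± 0.07 (adjusted p = 1.46e-15), beside 0.61 ± 0.05 for the effector gate.

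Fosb in the Treg gate was between 51.9 and 113 CPM (2.17 ± 0.15, adjusted p = 2.41e-12) and Fos between 343 and 548 CPM (0.85 ± 0.06, adjusted p = 1.06e-11). Atf3 was between 9.68 and 17.3 CPM (2.66 ± 0.25), Junb higher by 0.25 ± 0.04 and Jund by 0.13 ± 0.04 (adjusted p = 0.0122). Jun fell by 0.39 ± 0.07 (adjusted p = 3.24e-05), to between 304 and 568 CPM, a range that overlapped that of the naive gate. Fosl2 was not called (-0.13 ± 0.12, adjusted p = 0.416).

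**Figure D4:**
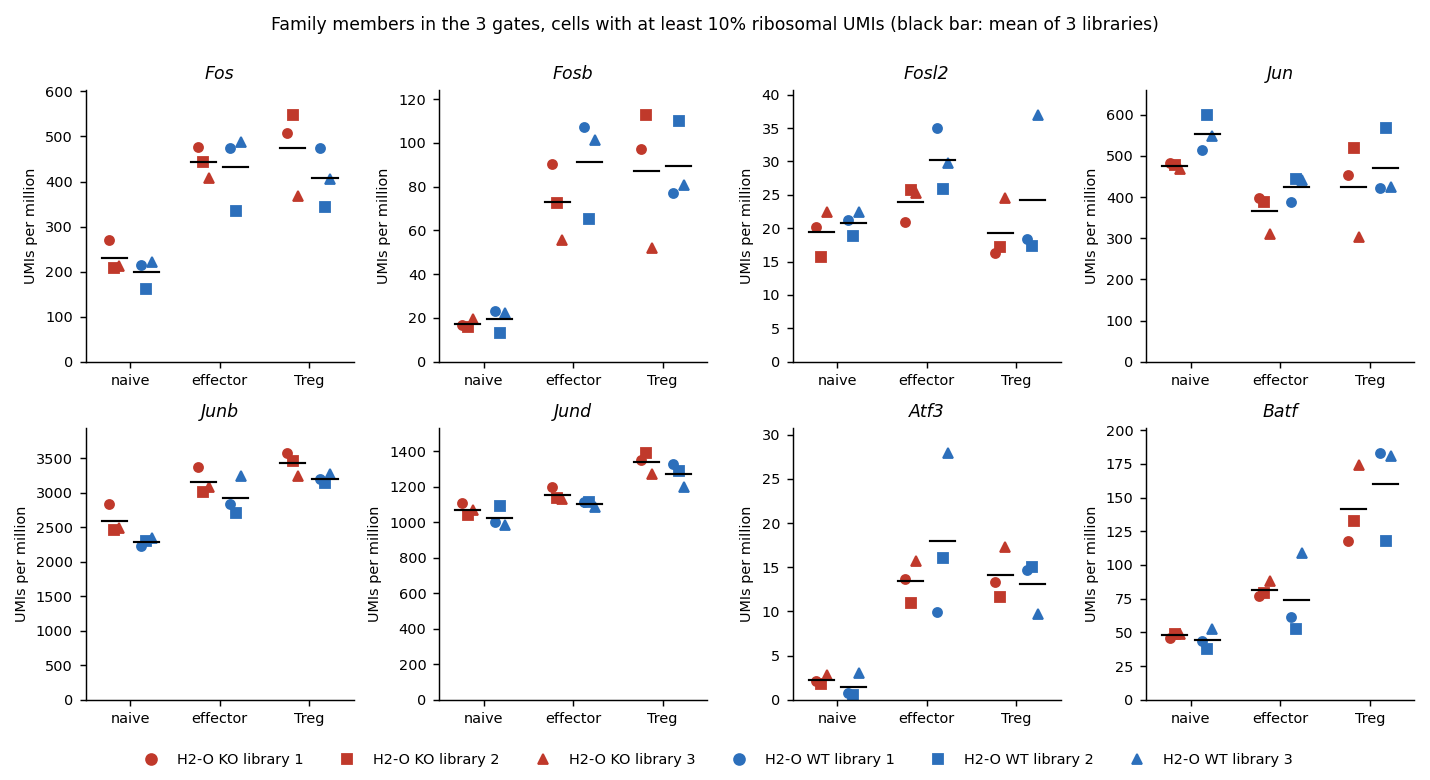
Each panel gives 1 member in the naive, effector and Treg gates, with the level in CPM on the vertical axis from 0; each point is 1 library (red KO libraries, blue WT libraries) and each black bar the mean of 3 libraries. Fosb lies at 13.1 to 23.2 CPM in the naive gate and at 51.9 to 113 CPM in the Treg gate, Batf steps up from naive to effector to Treg, and Jun is lower in the effector than in the naive gate.

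The gate differences were also fitted in each genotype alone. The Fos difference between the effector and naive gates was 0.80 ± 0.04 over the KO libraries and 0.97 ± 0.06 over the WT libraries, that of Fosb 1.99 ± 0.08 and 2.10 ± 0.10, and that of Jun -0.53 ± 0.04 and -0.52 ± 0.06. For Batf between Treg and naive gates the values were 1.35 ± 0.08 and 1.60 ± 0.10. All of these were called within each genotype, and their signs were the same. The exceptions among the called members were that Junb in the effector gate was called in KO libraries (0.14 ± 0.03) and not in WT libraries (0.20 ± 0.08, adjusted p = 0.0741), and that Jund in the Treg gate was called in neither (0.12 and 0.12, adjusted p = 0.0704 and 0.291). Fosl2 in the Treg gate, not called, was at -0.24 in KO libraries and 0.04 in WT libraries.

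The gates also differed in ribosomal share, with a median cell at 32.1 to 33.9% in the naive gate, 22.5 to 28.9% in the effector gate and 20 to 26.6% in the Treg gate. The comparison was therefore repeated within cells of 20-30% and of at least 30% ribosomal UMIs, added after these medians had been seen. At 20-30%, where 32.2% of 9129 genes were called between effector and naive gates, Fos was higher by 1.13 ± 0.05, Fosb by 2.21 ± 0.10, Junb by 0.48 ± 0.03 and Batf by 0.64 ± 0.08, and Jun was lower by 0.29 ± 0.04. At 30% and over, where 7.29% of 9142 genes were called, Fos was higher by 0.26 ± 0.04, Fosb by 0.83 ± 0.12, Jun was lower by 0.26 ± 0.03, Batf was at 0.10 ± 0.08 and no longer called (adjusted p = 0.58), and Junb had turned to -0.05 ± 0.01 (adjusted p = 0.0124). The opposite signs of Fos and Jun were thus present in both strata.

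For the Treg gate the same strata changed the sign of Jun. At 20-30% (29.1% of 7803 genes called) Jun was higher in the Treg gate by 0.18 ± 0.05 (adjusted p = 0.0106), and at 30% and over (10.8% of 8193 genes) it differed by -0.01 ± 0.07 (adjusted p = 0.964). The lower Jun of the Treg gate was seen in neither stratum. Gate cells of a lower ribosomal share than either stratum were not compared on their own. Their part in the lower Jun was therefore not tested. Fos was higher by 1.05 ± 0.06 and 0.67 ± 0.07, Fosb by 2.19 ± 0.15 and 1.96 ± 0.20, and Batf by 1.24 ± 0.11 at 20-30% but 0.17 ± 0.13 at 30% and over, the last not called (adjusted p = 0.522).

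**Figure D5:**
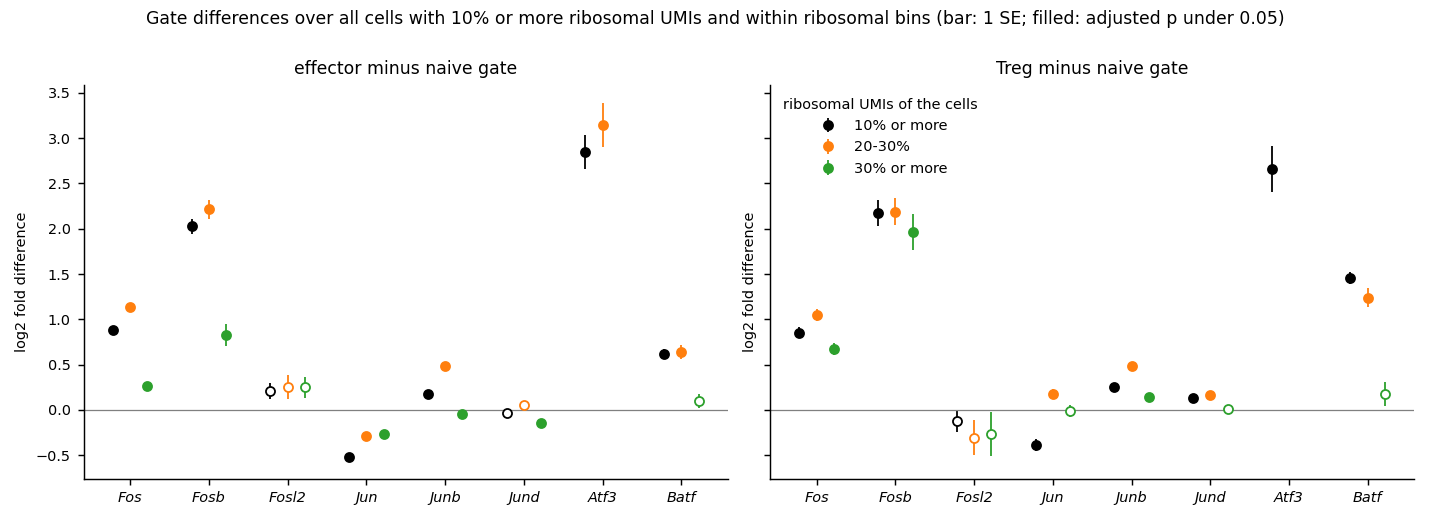
The vertical axis gives the log2 difference of the effector (left) or Treg gate (right) from the naive gate for each member, over all cells of at least 10% ribosomal UMIs (black), cells of 20-30% (orange) and cells of 30% and over (green), with bars of 1 SE and filled points at an adjusted p under 0.05. Fos and Fosb lie above 0 in all 3 sets of cells on both sides, while Jun in the Treg gate moves from -0.39 over all cells to 0.18 at 20-30%; Atf3 has points only where it was tested.

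The shares called in the other lists stood beside 41.9% of all genes for the effector and 46.0% for the Treg gate. They were 86.2 and 79.3% of immediate-early, 50.0 and 72.0% of other bZIP, 75.0 and 66.7% of heat shock, 55.6 and 59.3% of upstream genes and 88.9 and 66.7% of partners, so that other bZIP genes in the effector gate and upstream genes in both lay nearest to all genes. Of the other immediate-early genes 20 of 29 were higher and 5 lower in the effector than in the naive gate, and 19 of 29 higher and 4 lower in the Treg gate. Gadd45b, a stress sensor upstream of p38, differed by 1.81 ± 0.07 and 2.91 ± 0.07, the orphan nuclear receptor Nr4a2 by 1.58 ± 0.09 and 1.76 ± 0.09, and Klf2, a factor of resting naive cells, by -0.25 ± 0.03 and -0.61 ± 0.07. Among the other bZIP genes 5 of 26 were higher and 8 lower in the effector gate and 11 of 25 higher and 7 lower in the Treg gate. Maf, a bZIP factor of cytokine-producing cells, differed by 3.55 ± 0.09 and 4.29 ± 0.09, Nfil3 by 1.17 ± 0.10 and 2.28 ± 0.09, and the AP-1 competitor Bach2 by -0.69 ± 0.05 and -0.74 ± 0.07. Of the partners, 6 of 9 were higher and 2 lower in the effector gate, with Irf4 at 1.09 ± 0.10 and Nfatc1 at 1.18 ± 0.07, and 4 of 9 higher and 2 lower in the Treg gate, with Irf4 at 1.50 ± 0.15, while Satb1 was lower in both (-0.91 ± 0.06 and -1.33 ± 0.06). Upstream genes were higher in 8 and lower in 7 of 27 in the effector gate, with the kinase Map3k8 at 1.27 ± 0.09, and higher in 10 and lower in 6 in the Treg gate. Heat shock genes were higher in 3 and lower in 6 of 12 in the effector gate, and higher in 2 and lower in 6 in the Treg gate. AP-1 targets other than Cd44, which is 1 of the gate's own markers, were higher in 10 of 11 genes in the effector gate, and in 6 of 8 with 2 lower in the Treg gate. The list of targets holds Il2ra and Ctla4, which are also markers of regulatory T cells. Several of its genes, as given above, are also higher in effector cells, which the effector gate picks by their markers. Neither count is therefore a measure of AP-1 activity.

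Over the 18 sums of 3 gates and 6 libraries, the genes outside the family whose level on the log2(CPM + 1) scale was most like that of Fos were Casp1 (Pearson r = 0.94), Spry1 (0.93), Casp4 (0.93), Capn2 (0.93) and Ccdc50 (0.93), among 5990 genes. Within the family Fos was most like Fosb (0.93) and Junb (0.91) and least like Jun (-0.51). Among the genes most like Jun were Klf7 (0.86), Dnajb9 (0.85), Znrf3 (0.85) and Bbc3 (0.84). The sums share libraries and gates, so these values describe likeness only.

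Outside the T cells, Atf3 stood out in the 29 to 72 cells a library with macrophage markers, at 407, 255 and 449 CPM in KO libraries and 666, 440.5 and 328 CPM in WT libraries, from 30 to 92 UMIs. In T cells it stood between 4.71 and 11.6 CPM, where the 5 macrophage markers, limited by the T cell rule, summed to the values given above. The B cell-marker cells, 11 to 47 a library, had Fosb between 80.9 and 289 CPM, from 14 to 36 UMIs. They also held Foxp3 at 57.3 to 281 CPM, beside 42.5 to 57.4 CPM in all T cells. Whether regulatory T cells or doublets were among them was not tested, so this Fosb level is not one of B cells alone.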

How the data were processed

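Each of 3 unimmunized H2-O KO and 3 H2-O WT animals gave 1 library of sorted splenic CD4 T cells. The deposited values are UMI counts per gene and called cell that the authors made with Cell Ranger 6.1.2 on mm10, without normalization. Kept cells had 200 genes or more, 12000 UMIs or fewer and up to 5% mitochondrial UMIs, and doublets were treated only by the limit on UMIs and the marker rule. Ribosomal UMIs are those of 97 genes matching Rps or Rpl and a digit, 10 of them Rps6k kinase genes. Counts were summed per library and set of cells and tested with edgeR 4.0.16 (filterByExpr, TMM, quasi-likelihood test) under R 4.3.3, with Benjamini-Hochberg adjustment over all genes tested and calls at an adjusted p under 0.05. Comparisons within libraries kept the library as a block. The SE of a log2 difference is its size divided by the square root of the F statistic. With 1 library per mouse, p-values between genotypes measure the spread between libraries, in which mouse and library preparation cannot be told apart. The precision of these p-values is set by 3 mice a group. Those between classes or gates within libraries measure how the difference within a mouse varies from library to library.

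The members, gene lists, gates and the rule for named genes (all members, up to 3 largest rises and falls among called genes of each list, and the 5 genes most like Fos and Jun) were chosen with earlier results of these data known, and 1 gene so named is not reported here. The effector gate's markers were Cd44, S100a4, Itgb1, Ccl5, Nkg7, Cxcr3 and Izumo1r. Counts were simulated with the same dispersion for all genes and each sum drawn independently. A 2-fold change was put into 200 genes drawn at random. The fits recovered 89.4% of those tested over all T cells, 70.4% under 10% ribosomal UMIs, 85.8% in the naive gate and 29.6% in the interaction. Promoters come from RefSeq on GRCm38.p6, gene positions from GENCODE vM21. Alternatives were DESeq2 1.42.0, other scalings, filters, splits at 5 and 15%, thinning to 1500 UMIs, mitochondrial and UMI limits, strata, a replicate block and leaving out each library.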

Additional observations from a re-analysis of the deposited data

Results flagged for a closer look

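For 14 genes of the lists around the family and 2 nuclear-retained transcripts the genotype difference itself differed between T cells under 10% and of at least 10% ribosomal UMIs by the interaction test of edgeR, at an adjusted p under 0.05 over all genes. The value is the log2 difference of KO libraries from WT libraries under 10% minus that at 10% and over, and it was above 0 for the 14 and below 0 for the 2, Gm26917 at -1.24 and Xist at -0.69. None of the 8 members was among them. Over all 11152 genes tested, 3.51% were called. Called were 33.3% of targets, 33.3% of nuclear-retained and 25.0% of heat shock genes. Immediate-early and other bZIP genes were at 10.3% and upstream genes at 3.7%. As given above, effector-marker cells under 10% were a larger share in KO libraries, with overlap at 10% and over. Their part in these values was not tested. Among heat shock and folding genes the value was 1.05 for Hspd1, 0.98 for Hspa5 and 0.70 for Hspa8. Hspd1 stood at 127 to 205 CPM in KO libraries and 61.3 to 87.0 CPM in WT libraries under 10%, and at 119.0 to 119.6 against 130.1 to 130.8 CPM at 10% and over. Immediate-early genes were Gadd45b at 0.65, Socs3 at 0.65 and Dusp1 at 0.48. Dusp1 stood at 374 to 455 CPM in KO libraries and 221 to 245 CPM in WT libraries under 10%, and at 374 to 399 against 301 to 379 CPM at 10% and over. The bZIP genes Cebpb and Maf were at 0.60 and 0.57, and the p38 kinase gene Map2k3 at 0.99. Of AP-1 targets, Vim was at 1.24, Ifng at 1.57 and Cd40lg, which encodes CD40 ligand and is named outside the rule, after its value was seen, at 0.66. Vim stood at 367 to 449 CPM in KO libraries and 114 to 132 CPM in WT libraries under 10%. Cebpa (2.51) and Ccl4 (4.19) rested on few molecules, with 4, 4 and 20 Cebpa UMIs in KO1 to KO3 and 2, 0 and 6 in WT1 to WT3 under 10%, and 0, 1 and 11 Ccl4 UMIs in KO1 to KO3 and 3, 0 and 0 in WT1 to WT3.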

How the results depend on the processing

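Over the planned and added alternatives, 131 of 190 counts of genes called stayed within 1.5 times the reported count and 59 did not, and 160 of 190 counts of members called stayed and 30 did not. Of 1493 log2 differences of members, 1336 kept direction and side of the threshold or moved by less than the spread between libraries, 58 moved by more, 37 passed and 55 lost the threshold, and 7 reversed. The reversals were Fos among effector-marker cells under 10% (-0.01), Batf between genotypes (0.62) and in the interaction (0.57) with the split at 15%, Fos (0.20) and Jun (0.21) between classes with total UMIs as library size, Junb between effector and naive gates at 30% and over (-0.05) and Jun between Treg and naive gates at 20-30% (0.18). The cause was not tested.

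Over all T cells, at least 2000 UMIs per cell gave 2495 genes and 0 members called. Among cells of at least 10%, genes called were 1960 with the split at 5%, 651 at 15% and 143 in cells of 20-30%, and members called were 1 by DESeq2 and 1 in cells of 30% and over. Under 10%, genes called were 711 by DESeq2, 3533 with the split at 15%, 321 in naive-marker and 98 in effector-marker cells, and members called were 5 with the split at 15% and 1 with up to 10% mitochondrial UMIs. In the naive gate, DESeq2 gave 723 genes and 2 members, gates over any ribosomal share 3434 and 4, cells of 20-30% 184 and 0, and cells of 30% and over 532 genes, while no low-count filter gave 3 members, UMIs outside ribosomal and mitochondrial genes as library size 0 and the split at 5% 0. In the effector gate, genes called were 137 by DESeq2, 420 without the filter, 199 with the split at 5%, 47 on cells thinned to 1500 UMIs and 493 over any share, and in the Treg gate 106, 42 and 102 without the filter, with the split at 5% and over any share. In the interaction, genes called were 192 by DESeq2, 188 and 1978 with the splits at 5 and 15%, 218 with up to 10% mitochondrial UMIs, 209 with at least 2000 UMIs, and 664 and 632 with UMIs outside ribosomal and mitochondrial genes and total UMIs as library size, and members called were 3 with the split at 15% and 1 and 2 with those library sizes. Between gates, the H2-O WT libraries alone gave 1944 genes for effector and 2468 for Treg against naive, cells of 30% and over 666 and 883, the latter with 3 members, and cells of 20-30% 2274 for Treg against naive.

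Leaving out each library gave 2162 to 4851 genes and 0 to 4 members over all T cells, 89 to 1205 genes at 10% and over, 548 to 1608 genes and 0 to 3 members under 10%, 395 to 1306 genes and 0 to 3 members in the naive gate, 19 to 193 genes and 0 to 1 members in the effector gate, 17 to 36 genes in the Treg gate and 64 to 366 genes in the interaction.

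The libraries of both genotypes carry the numbers 1 to 3, but nothing ties equal numbers to a shared litter or day, and the correlations of same-numbered libraries' deviations were -0.14, 0.15 and 0.55, so the numbers were not taken as pairs, and not every library correlated best with its own number. With a replicate block 4675 genes and 4 members were called over all T cells, 1955 genes and 1 member at 10% and over, 1848 and 3 under 10%, 1631 and 2 in the naive gate, 468 genes in the effector and 80 in the Treg gate.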

Other observations

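Regulatory T cells under 10% ribosomal UMIs were few, with 19 to 81 cells with a Foxp3 UMI a library, and were not tested. In them Jun stood at 381, 359 and 369 CPM in KO1 to KO3 and at 744, 553 and 835 CPM in WT1 to WT3, from 19 to 141 UMIs, and Jund at 1083, 1045 and 1073 CPM and 674, 534 and 598 CPM, from 54 to 183 UMIs. Jun was higher in each WT library and Jund in each KO library. The share of all genes set apart in this way in these cells was not taken, so this is no result about these members. Fosb, Fosl2, Junb, Atf3 and Batf are not given for these cells. Fos overlapped, between 522 and 822 CPM in KO libraries and between 315 and 627 CPM in WT libraries.

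T cells left out for 5-10% mitochondrial UMIs, 240 to 1623 a library, had Fosl2 between 95.9 and 117 CPM and Fosb between 144 and 202 CPM, beside 18.8 to 27.0 and 34.5 to 59.3 CPM in the kept T cells of at least 10% ribosomal UMIs. Both ranges of the cells left out overlapped those of the kept T cells under 10% ribosomal UMIs, given above. Junb in the cells left out stood at 2622, 2142 and 1617 CPM in KO libraries and at 1327, 1510.1 and 1461 CPM in WT libraries. These cells were not tested alone, and the other members are not given by genotype. The share of all genes set apart in this way is not given either, so this is no result about Junb.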
